A study of Mus musculus with 88 samples.

Results

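The mitosis and spindle genes are 37 genes whose products take a cell into mitosis, build the spindle, hold chromosomes at it and split the cell. They were followed on expression arrays of 4 mouse tumours irradiated with carbon ions or with gamma rays. The genes were taken from the platform's gene symbols, updated by Entrez number, and each was read from the probe with the highest mean log2 intensity over the 88 arrays. Of the 37 genes, 36 had a probe that names them alone, among 18067 genes in all, and 35 passed the filters for the statistical test, among 13465 genes tested. Ndc80, an outer kinetochore subunit, was read only by a probe carrying 2 symbols and was not used. Ect2, which activates the small GTPase of the cleavage furrow, had a value on 40 arrays and is described without a test.

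Entry into mitosis is driven by cyclin-dependent kinase 1 with cyclins A and B, and by the Polo and Aurora kinases. Kinesins and microtubule-associated proteins then build the spindle, kinetochores attach chromosomes to it, and the spindle checkpoint holds back the anaphase-promoting complex until attachment is complete. These genes are transcribed mainly in late S, G2 and M phase, so in a tumour their RNA marks cells near division. After irradiation the DNA damage checkpoint delays entry into mitosis, and the cell cycle inhibitor p21 (Cdkn1a) takes part in keeping many of these genes repressed.

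All tumours grew in a hind leg of C3H/HeNrs mice. NR-S1 and SCCVII are titled squamous cell carcinomas that arose spontaneously in C3H/He mice, NFSa is a spontaneous fibrosarcoma, and #8520 is a fibrosarcoma induced by radiation in C3H mice. In the carbon arm, each tumour was untreated or taken 6 h, 1 day or 3 days after 30 Gy of carbon ions at 290 MeV, in the middle of a spread-out Bragg peak of 6 cm. In the gamma arm, each was untreated, or taken at the same times after 30 Gy or 50 Gy. This makes 44 groups of 2 arrays, and each arm has its own untreated tumours. The labels give no ages. They also do not say whether both arrays of a group are of different mice, and the p-values therefore cover only the spread between arrays, which may be technical. RNA was taken from whole tumours, so fewer cells of a type and less RNA per cell cannot be told apart in any result.

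Array medians of the deposited intensity lay between 1.02 and 1.07, and the 2 arrays of a group correlated across genes at 0.990 to 0.998. After 50 Gy, the 8 day 1 and day 3 arrays of #8520 and SCCVII stood apart from the other 80. Their lowest intensities lay higher (1st percentile 0.297 to 0.378, against 0.0128 to 0.134), and all 85 probes that had values on every carbon array but on none of the other 48 gamma arrays had values on these 8. Counts over the 4 tumours that use them are also given for NR-S1 and NFSa alone. SCCVII, although titled a squamous cell carcinoma, had Krt5 at a log2 intensity of -1.62, Krt14 at -2.60 and Epcam at -0.86 in the untreated tumours of both arms, below the array median, whereas NR-S1 had 8.38, 8.35 and 7.30. In what follows a level is a log2 intensity, a change is a difference of mean log2 intensities from the untreated arrays of the same tumour and arm, and a gene fell or rose when limma's two-sided test, adjusted by the Benjamini-Hochberg method over all 13465 genes, gave a value under 0.05.

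At 6 h after carbon ions, 34 of the 35 tested genes fell in the mean over the 4 tumours. Their median change was -0.91, a 1.88-fold drop, where 19.5% of all genes tested were lower and the median of all genes was -0.01. Aspm, which focuses the spindle poles, fell most, by 1.59 ± 0.07 on the log2 scale (SE; adjusted p = 1.3e-25). Kif20a, the central spindle kinesin that carries Polo-like kinase, fell by 1.43 ± 0.06 (adjusted p = 1.3e-28), and Sapcd2, which takes part in orienting the spindle, by 1.43 ± 0.08 (adjusted p = 5.4e-21). Bub1, a kinase of the spindle checkpoint, was the only tested gene that did not pass, at -0.01 ± 0.08 (adjusted p = 0.927).

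Plk1, the Polo-like kinase that drives mitotic entry, shows the 6 h drop on single arrays. Its level in NR-S1 was 0.13 and 0.05 on the untreated arrays and -1.12 and -1.10 at 6 h. In SCCVII it was 0.68 and 0.62, then 0.20 and 0.07. Both tumours fell beyond the gap between their paired arrays, NR-S1 by more. In NFSa the untreated levels were 1.44 and 1.48, and those at 6 h -0.23 and -0.22. In #8520 they were 1.81 and 1.39, then -0.28 and -0.18. No array at 6 h reached an untreated array of its own tumour, and the mean change of Plk1 was -1.31 ± 0.06 (adjusted p = 3e-26), or 2.47-fold.

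Aspm separated more widely. NR-S1 had levels of 4.17 and 4.06 untreated and 1.86 and 1.86 at 6 h. SCCVII had 4.18 and 4.28, then 3.15 and 3.28. The groups of both tumours were far apart relative to their paired arrays. NFSa went from 4.18 and 4.23 to 2.83 and 2.77. In #8520 the levels went from 3.90 and 3.92 to 2.21 and 2.26. At the other end stood Ube2c, the ubiquitin-conjugating enzyme of the anaphase-promoting complex, which fell by 0.34 ± 0.06 in the mean (adjusted p = 3.7e-06). Its SCCVII levels were 5.91 and 5.73 untreated and 5.99 and 6.10 at 6 h, so this tumour showed no drop, while in #8520 it went from 5.82 and 5.84 to 5.07 and 5.08.

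**Figure D1:**
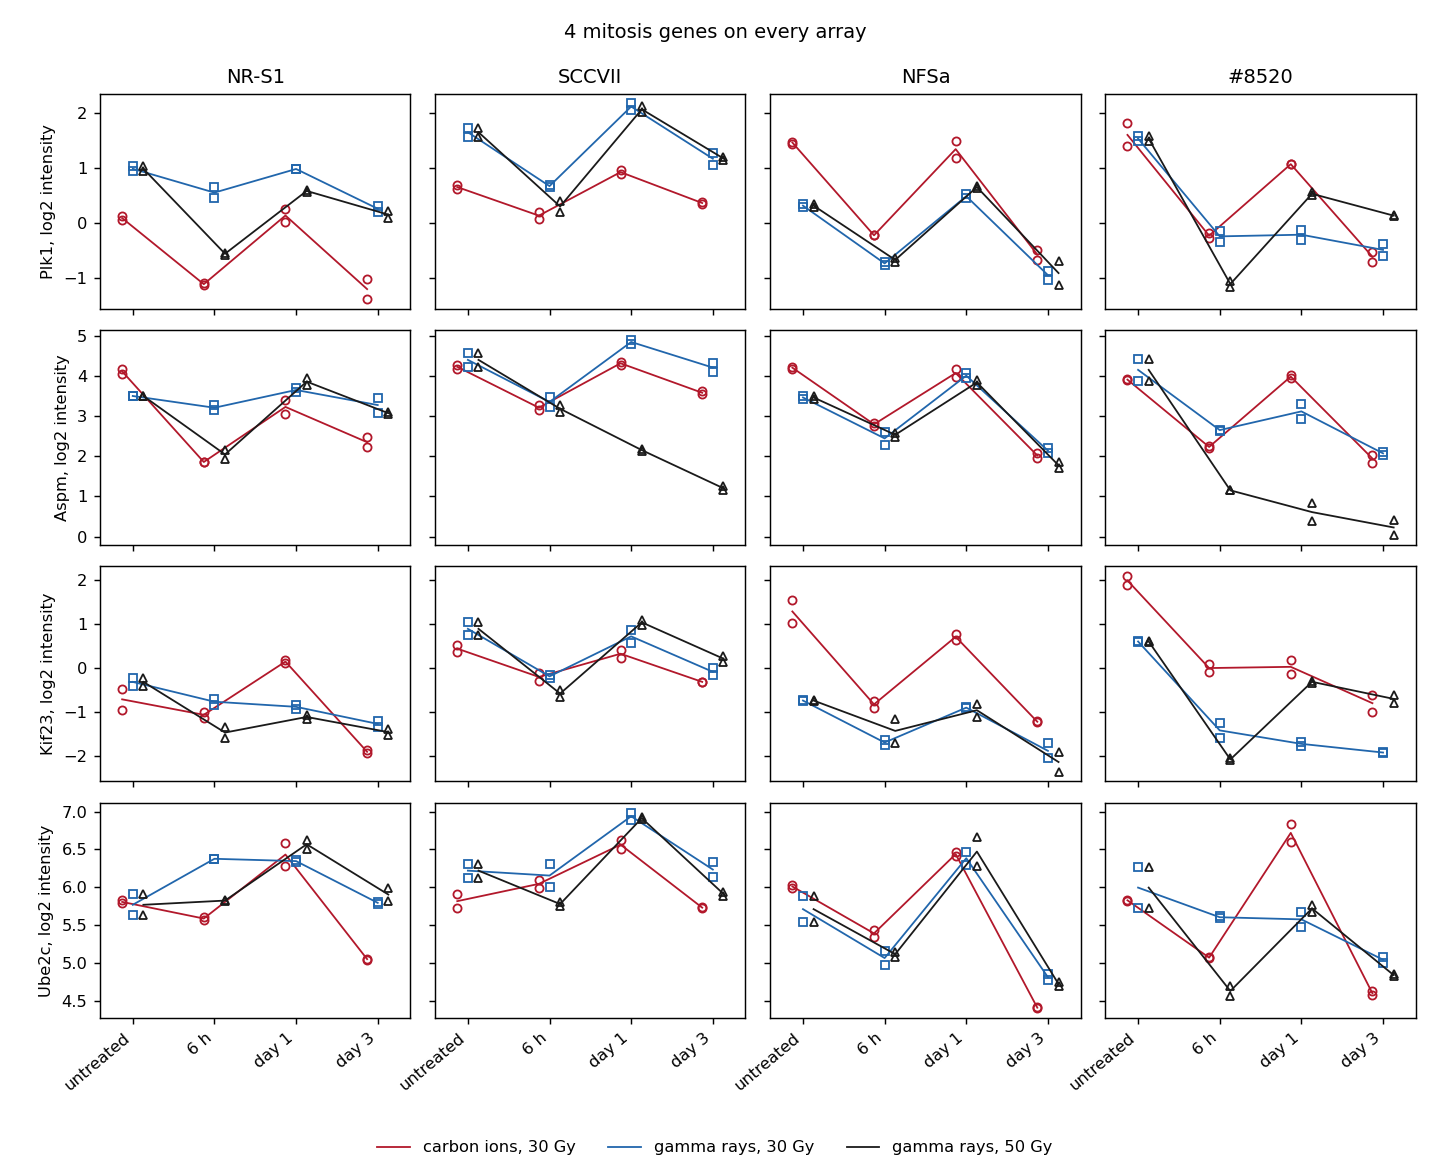
Log2 intensity of Plk1, Aspm, Kif23 and Ube2c on every array, by tumour, beam and time, with each point 1 array, lines through the means, and the untreated gamma-arm arrays drawn for both gamma doses. In all 4 tumours both Plk1 arrays at day 1 after carbon ions lie above those at 6 h and day 3, whereas Ube2c lies above its untreated arrays at day 1 after carbon ions in all 4.

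Promoters of members are shown because the genes moved together, and because 2 short elements recur in them. The cell cycle genes homology region (CHR, written TTTGAA or TTCGAA) is known as the site through which the DREAM complex represses, and the MuvB complex with B-Myb and Foxm1 activates, late cell cycle genes. A CCAAT box, bound by NF-Y, often lies upstream of it. Each sequence below is the 120 bases before the start of the gene on its own strand, 5′ to 3′, from the RefSeq promoter table of build GRCm38.p6, with CHR and CCAAT letters of either strand in capitals. Cdk1 (chr10:69352913-69353032, minus strand), Cdc20 (chr4:118437344-118437463, minus), Kif11 (chr19:37376262-37376381, plus), Top2a (chr11:99024190-99024309, minus) and Ube2c (chr2:164769809-164769928, plus) hold CHR letters. Nek2 (chr1:191821353-191821472, plus) and Mad2l1 (chr6:66535101-66535220, plus) hold none in the window searched.
Cdk1: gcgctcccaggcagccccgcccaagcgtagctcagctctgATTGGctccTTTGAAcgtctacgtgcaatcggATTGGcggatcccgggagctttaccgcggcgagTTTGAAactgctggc
Cdc20: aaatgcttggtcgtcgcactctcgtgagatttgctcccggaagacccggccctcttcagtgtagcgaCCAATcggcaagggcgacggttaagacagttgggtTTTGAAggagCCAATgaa
Kif11: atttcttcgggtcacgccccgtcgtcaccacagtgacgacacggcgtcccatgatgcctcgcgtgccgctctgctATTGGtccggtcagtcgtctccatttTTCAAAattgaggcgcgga
Top2a: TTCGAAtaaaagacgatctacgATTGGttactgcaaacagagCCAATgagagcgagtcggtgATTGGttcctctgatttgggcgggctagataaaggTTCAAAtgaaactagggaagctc
Ube2c: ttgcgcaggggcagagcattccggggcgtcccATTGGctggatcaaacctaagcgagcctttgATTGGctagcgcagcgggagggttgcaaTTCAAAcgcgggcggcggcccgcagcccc
Nek2: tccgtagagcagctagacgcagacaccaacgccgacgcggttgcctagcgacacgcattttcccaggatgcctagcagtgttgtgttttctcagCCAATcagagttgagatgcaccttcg
Mad2l1: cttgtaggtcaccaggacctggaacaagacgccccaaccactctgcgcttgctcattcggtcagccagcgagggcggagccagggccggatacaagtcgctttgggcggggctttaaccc

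The table held a window from 250 bases before to 50 bases after the start for 31 of the 37 members. CHR letters were found in 25 of the 31 (80.6%), against 17.3% of the windows of 10777 tested genes. Within 50 bases of the start they were in 24 (77.4%), against 4.55%. CCAAT or its reverse was in 24 (77.4%), against 42% of tested genes. The E2F letters TTTGGCGC, TTTCCCGC, TTTGGCGG or TTTCGCGC were in 1 of 31 (3.23%), against 4.34%. A match is a description of letters and not of binding. Cenpe, Nek2, Nuf2, Birc5, Mad2l1 and Sapcd2 had no CHR letters, and the median change at 6 h after carbon ions was -0.91 over the 23 tested members with them and -0.90 over the 6 without. At day 3 the medians were -1.27 and -1.31. Among the 6 without the letters, Sapcd2 and Mad2l1 lay at opposite ends at 6 h, at -1.43 and -0.38. The 23 with the letters ran from -1.59 to -0.01.

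**Figure D2:**
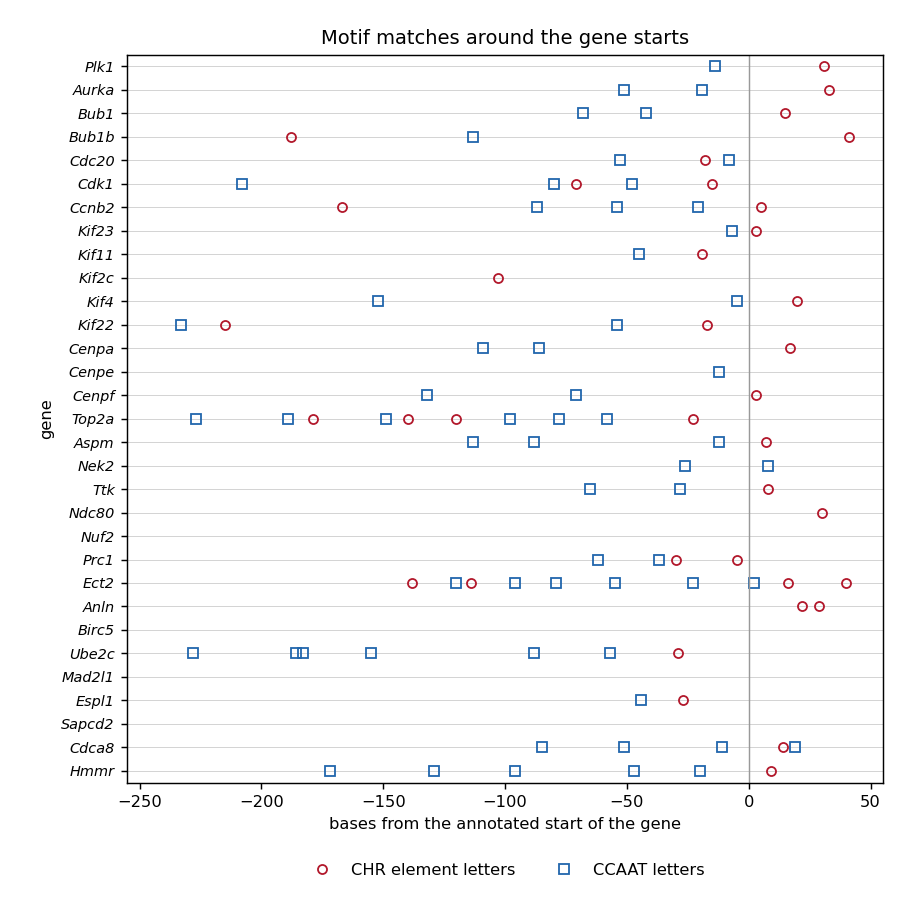
Distance in bases from the annotated gene start of CHR letters (circles) and CCAAT letters (squares) in the promoter windows of the 31 members with a window, 1 row per member. CHR letters lie within 50 bases of the start in 24 of the 31 windows.

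At day 1 after carbon ions the genes were near their untreated levels. The median change was -0.03, with 9 of 35 lower, where 16.6% of all genes were lower, and 7 of 35 higher, where 25.5% were higher. Both shares are near those of all genes. With quantile normalization 13 fell and 5 rose, and with each array centred on its median 14 fell and 5 rose. Ube2c rose by 0.67 ± 0.06 (adjusted p = 4.2e-14), Kif20a by 0.40 ± 0.06 (adjusted p = 2.2e-08) and Hmmr, a spindle-binding hyaluronan receptor, by 0.24 ± 0.04 (adjusted p = 1.3e-05). Cenpa, the histone variant of centromeres, Cenpf, a kinetochore protein, Cdk1 and Prc1, which bundles central spindle microtubules, rose by 0.13 to 0.22. Kif23, the kinesin of the centralspindlin complex, fell by 0.45 ± 0.08 (adjusted p = 3.6e-06), Sapcd2 by 0.30 ± 0.08 (adjusted p = 0.0023) and Ccna2, cyclin A2, by 0.27 ± 0.06 (adjusted p = 0.00017).

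Between 6 h and day 1 after carbon ions 34 of 35 genes rose, with a median difference of 0.90, where 20% of all genes were higher. Kif20a rose most, by 1.84 ± 0.06 (adjusted p = 1.3e-32), followed by Aspm at 1.38 ± 0.07 and Hmmr at 1.30 ± 0.04. Its levels in NFSa were 3.29 and 3.59 untreated, 2.08 and 2.11 at 6 h, 4.03 and 4.18 at day 1, and 1.57 and 1.65 at day 3. In #8520 they were 3.76 and 3.67, 1.79 and 1.71, 3.77 and 3.79, then 1.55 and 1.75. Kif20a thus overshot its untreated arrays in NFSa and met them in #8520. Bub1 did not pass between these times (-0.20, adjusted p = 0.064).

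At day 3 after carbon ions all 35 tested genes were lower than untreated, with a median change of -1.36, a 2.56-fold drop, where 41.8% of all genes were lower and the median of all genes was -0.08. Sapcd2 fell by 1.83 ± 0.08 (adjusted p = 2.4e-26), Kif23 by 1.81 ± 0.08 (adjusted p = 2.3e-27) and Ccna2 by 1.65 ± 0.06 (adjusted p = 1e-30). The smallest drop was that of Bub1, 0.45 ± 0.08 (adjusted p = 6e-06). Against day 1 all 35 were lower, with a median of -1.33, where 45.3% of all genes were lower and 19.7% higher, and Kif20a (-1.70), Ube2c (-1.59) and Aurka (-1.56), the spindle pole kinase, differed most. Each of these comparisons uses the same untreated or day 1 arrays as another, so they are not independent of each other.

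**Figure D3:**
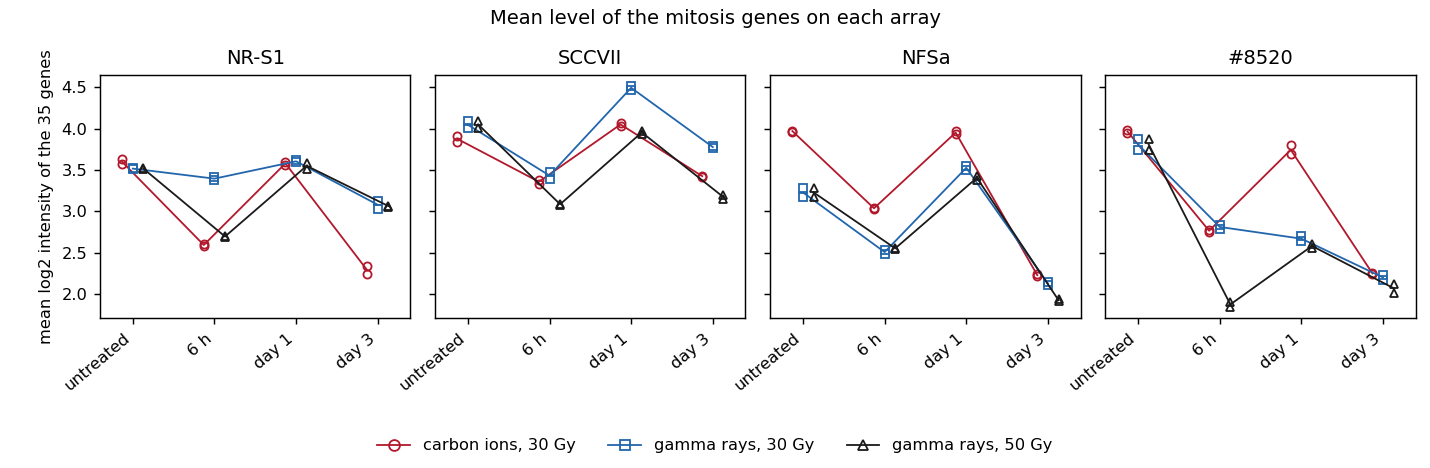
Mean log2 intensity of the 35 tested genes on each array, by tumour, with untreated, 6 h, day 1 and day 3 along the horizontal axis beam and dose as colours, lines through the means, and the untreated gamma-arm arrays drawn for both gamma doses. After carbon ions each tumour is low at 6 h, higher again at day 1 and low at day 3, and #8520 after gamma rays is at 2.56 to 2.70 at day 1, below its untreated 3.75 and 3.87.

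By role, the 7 entry kinases, cyclins and phosphatase (Cdk1, Ccna2, Ccnb2, Cdc25c, Plk1, Aurka, Nek2) all fell at 6 h after carbon ions, with a median of -1.10, and all at day 3, with a median of -1.45. Cdc25c, the phosphatase that activates Cdk1, fell by 1.40 at 6 h and 1.63 at day 3. Cdk1 fell less, by 0.53 ± 0.07 (adjusted p = 3.8e-09) at 6 h and 1.07 at day 3. Its #8520 levels were 7.08 and 7.09 untreated, 6.30 and 6.29 at 6 h, 7.07 and 7.17 at day 1, and 5.50 and 5.72 at day 3. In SCCVII they were 7.38 and 6.95 untreated, 6.78 and 6.99 at 6 h, 7.44 and 7.58 at day 1, and 6.86 and 6.98 at day 3. The lower untreated SCCVII array lay below 1 array at 6 h and 1 at day 3, so the groups of this tumour overlapped on Cdk1. Its rise at day 1 (0.16 ± 0.07, adjusted p = 0.048) was at the threshold and was lost with other normalizations.

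Ccnb2, cyclin B2, fell by 0.99 ± 0.08 at 6 h and 1.23 at day 3. NR-S1 had 6.31 and 6.44 untreated, 5.07 and 5.13 at 6 h, 5.96 and 5.87 at day 1, and 5.18 and 5.04 at day 3. In #8520 the levels were 6.45 and 6.43, 5.31 and 5.22, 7.11 and 7.08, then 4.78 and 5.12. Both day 1 arrays of Ccnb2 lay below both untreated arrays in NR-S1 and above both in #8520.

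Of the 4 checkpoint genes (Bub1, Bub1b, Mad2l1, Ttk), 3 fell at 6 h and 4 at day 3, with medians of -0.54 and -1.31. Bub1b, the BubR1 subunit of the mitotic checkpoint complex, fell by 1.09 and 1.44, while Mad2l1, its Mad2 partner, fell by 0.38 ± 0.06 at 6 h (adjusted p = 2.4e-06). The 4 tested centromere and kinetochore genes (Cenpa, Cenpe, Cenpf, Nuf2) fell at both times, with medians of -0.90 and -1.17. The 4 subunits of the chromosomal passenger complex (Aurkb, Birc5, Cdca8, Incenp), which corrects faulty attachments, fell by a median of 0.65 and 1.39. Within this complex Birc5, or survivin, fell by 0.53 at 6 h and Cdca8, or borealin, by 0.78.

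The 3 genes of anaphase and exit fell by a median of 0.92 at 6 h and 1.02 at day 3. Cdc20, which activates the anaphase-promoting complex, fell by 1.19 at 6 h, Espl1, the separase that cuts cohesin, by 0.92, and Ube2c by least. The 8 spindle assembly genes (Kif11, Kif2c, Kif4, Kif22, Aspm, Tpx2, Hmmr, Sapcd2) fell by a median of 1.01 and 1.33, and the 4 tested genes of the central spindle and cleavage furrow (Prc1, Kif20a, Kif23, Anln) by 1.09 and 1.29. Top2a, the topoisomerase that separates sister chromatids, fell by 0.68 ± 0.07 at 6 h (adjusted p = 2.1e-12) and by 1.40 at day 3. Its NFSa levels were 5.89 and 5.86 untreated, 5.19 and 5.03 at 6 h, 5.84 and 5.72 at day 1, and 4.30 and 4.17 at day 3. In SCCVII they were 6.27 and 6.50, 6.02 and 6.07, 6.87 and 6.46, then 5.78 and 5.86. The day 3 arrays of Top2a were below all others in both tumours.

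The 30 Gy gamma dose gave a smaller median. At 6 h, 33 of 35 fell, by a median of 0.59 (1.50-fold), where 18.4% of all genes were lower. Cdc25c fell most (1.14 ± 0.06, adjusted p = 1e-21), then Kif23 (1.13 ± 0.08, adjusted p = 8.3e-18) and Bub1b (1.07 ± 0.08, adjusted p = 3.2e-16). Ube2c at -0.12 ± 0.06 (adjusted p = 0.0939) and Bub1 at -0.09 ± 0.08 (adjusted p = 0.414) did not pass. At day 1, 14 fell and 7 rose, with a median of -0.08, where 21.7% of all genes were lower and 21.2% higher. Kif23 (-0.81 ± 0.08, adjusted p = 1.1e-12), Bub1b (-0.59 ± 0.08, adjusted p = 2.9e-08) and Ccna2 (-0.42 ± 0.06, adjusted p = 5.4e-08) fell most. Ube2c (0.39), Kif20a (0.35) and Hmmr (0.31) led the 7 that rose. At day 3 all 35 fell, with a median of -0.86, where 30.9% of all genes were lower, and Kif23 (-1.40), Bub1b (-1.21) and Ccna2 (-1.21) again fell most. Between 6 h and day 1, 32 rose (median 0.48; 13.5% of all genes higher), and between day 1 and day 3, 34 fell (median -0.81; 24.8% of all genes lower).

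At 6 h after 50 Gy of gamma rays all 35 genes fell, with a median of -1.04, where 26.9% of all genes were lower. Cdc25c (-1.75 ± 0.06, adjusted p = 4.6e-30), Sapcd2 (-1.66 ± 0.08, adjusted p = 5.2e-24) and Aspm (-1.65 ± 0.07, adjusted p = 1.3e-26) fell most, and Bub1 (-0.29) least. At day 1, 25 fell and 4 rose, with a median of -0.27, where 45.1% of all genes were lower, 23.1% higher and the median of all genes was -0.09. With quantile normalization 16 fell and 5 rose, and with median centring 15 fell and 6 rose. In NR-S1 and NFSa alone, which leaves out the 8 arrays that stood apart, 3 fell and 13 rose, with a median of 0.09, where 13% of all genes were lower and 16.2% higher. At day 3 all 35 fell with the 4 tumours (median -1.13, 44.7% of all genes lower) and with these 2 (median -0.88, 23.8% lower). From 6 h to day 1, 32 rose and 2 fell (median 0.76, with 24.7% of all genes higher and 42.4% lower), and from day 1 to day 3, 34 fell (median -0.84, 22.8% lower). With NR-S1 and NFSa alone 34 rose (median 0.81, 12.5% higher) and 34 fell (median -1.03, 18.6% lower).

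Aspm, Cenpf and Incenp, the scaffold of the passenger complex, were the genes that fell most at day 1 after 50 Gy (-1.26 ± 0.07, adjusted p = 1.4e-21; -0.87 ± 0.05, adjusted p = 3.5e-20; -1.01 ± 0.07, adjusted p = 1.3e-17). Over NR-S1 and NFSa alone, Aspm was at 0.37 (adjusted p = 0.00407), Cenpf at 0.20 (adjusted p = 0.035) and Incenp at -0.12 (adjusted p = 0.393). Aspm in SCCVII was at 4.24 and 4.57 untreated and at 2.18 and 2.12 at day 1 after 50 Gy, but at 4.90 and 4.79 at day 1 after 30 Gy. In NR-S1, whose arrays did not stand apart, it was at 3.51 and 3.49 untreated and at 3.77 and 3.95 at day 1 after 50 Gy. Incenp in NFSa was at 2.59 and 2.30 untreated and at 2.05 and 2.16 at day 1 after 50 Gy, a change of -0.34 that did not pass (adjusted p = 0.0781). In #8520 all 3 genes were also lower at day 1 after 30 Gy, on arrays that did not stand apart. There Aspm fell by 1.03, Cenpf by 0.73 and Incenp by 1.09, against 3.54, 2.50 and 2.32 after 50 Gy. The part of the arrays' own difference in these drops was not tested. Against the untreated carbon-arm arrays, these 8 arrays gave 7 lower and 15 higher in SCCVII at day 1 (41.6% and 21.6% of all genes), where the gamma-arm arrays gave 9 and 9. At day 3 they gave 26 lower and 1 higher (41.4% and 24.2%), against 31 lower. In #8520, 32 fell at day 1 (44.9%) and 34 at day 3 (40.2%), against 34 at both times.

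**Figure D4:**
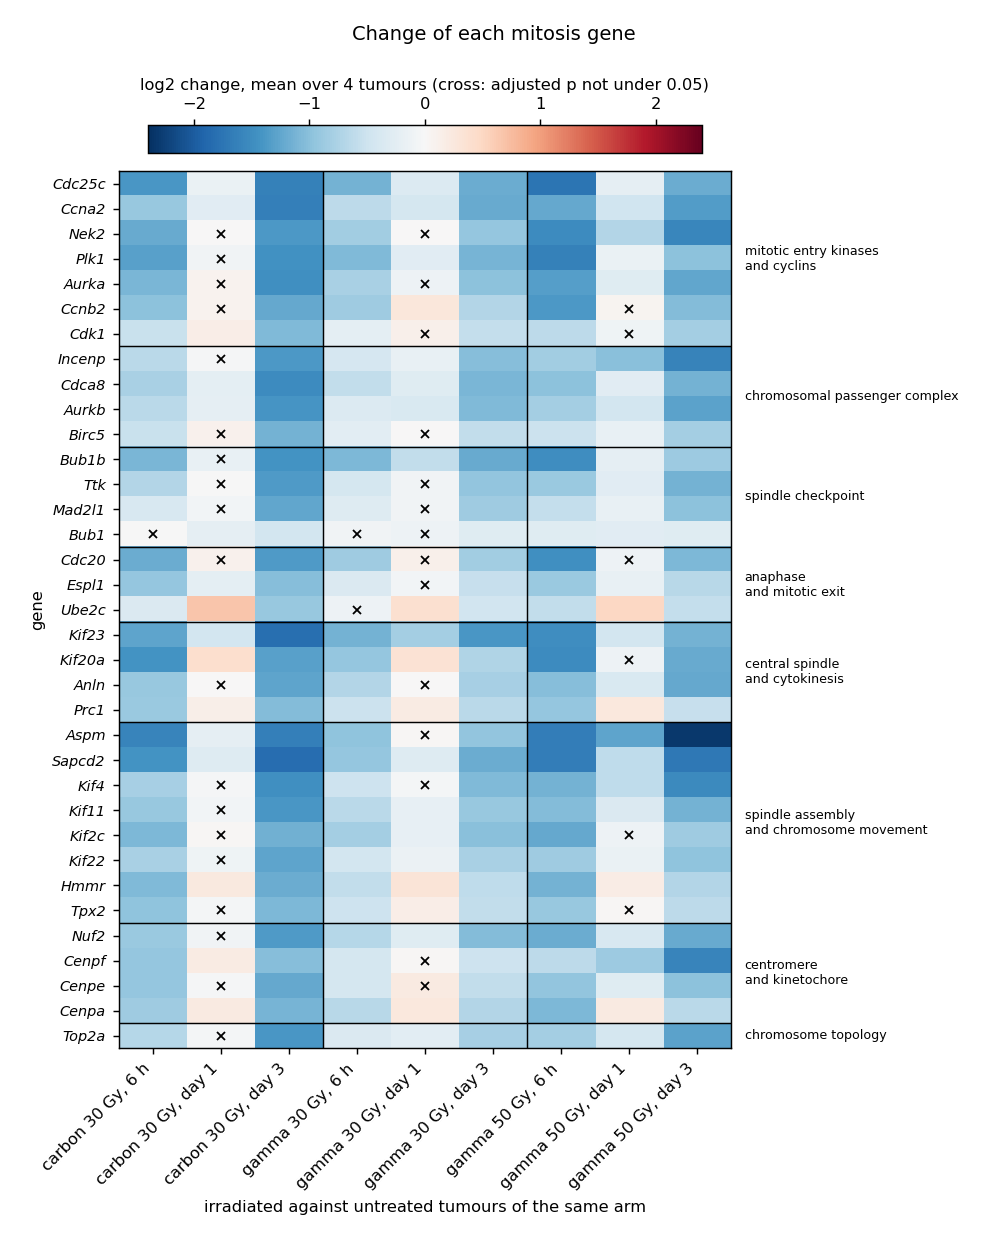
Change in log2 intensity of each of the 35 tested genes against untreated, mean over the 4 tumours, as a colour scale from lower (blue) to higher (red), with genes as rows grouped by role, the 9 combinations of beam, dose and time as columns, and a cross where the adjusted p was not under 0.05. The columns at 6 h and day 3 are blue for nearly all genes, those at day 1 are pale and mixed, and Bub1 is pale throughout.

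Among the tumours, SCCVII had the medians nearest 0 at 6 h and day 3 after carbon ions. In this tumour 28 of 35 fell at 6 h (median -0.51; 6.42% of all genes lower), 1 fell and 8 rose at day 1 (median 0.17; 11.1% lower, 17.8% higher, and 2 and 6 with quantile normalization), and 24 fell at day 3 (median -0.39; 15.6% lower). Aspm (-1.02) and Kif20a (-1.003) fell most at 6 h, and Ccna2 (-0.87) and Cdca8 (-0.82) at day 3. Kif20a levels in SCCVII were 3.23 and 3.10 untreated, 2.10 and 2.23 at 6 h, 3.997 and 4.03 at day 1, and 3.27 and 3.38 at day 3. The day 3 arrays of Kif20a were therefore not below the untreated ones in this tumour. After 30 Gy of gamma rays 27 fell at 6 h (median -0.56; 6.48% lower), 26 rose at day 1 (median 0.45; 14% higher), led by Hmmr (1.03) and Cenpa (0.96), and 13 fell at day 3 (median -0.24; 10.7% lower). The count of 26 was 16 without untreated gamma-arm array 1 and 15 without day 1 array 4. After 50 Gy 34 fell at 6 h (median -0.93; 9.71% lower). On the arrays that stood apart, 9 fell and 9 rose at day 1 (median 0.01; 46.9% lower, 18.3% higher) and 31 fell at day 3 (median -0.71; 48.1% lower). Here the counts moved with the scaling. Quantile normalization gave 6 lower and 24 higher at day 1 and 20 lower and 4 higher at day 3. Median centring gave 5 and 22, then 21 and 3. The shares of all genes under these scalings are not given, so the counts are not set against them.

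In NR-S1, carbon ions lowered 32 genes at 6 h (median -1.15; 15.2% of all genes lower). Kif23 (-0.35), Ube2c (-0.22) and Bub1 (0.04) were the 3 that did not pass. At day 1, 8 fell and 7 rose (median -0.03; 16.4% lower, 18.7% higher), and the sum of 15 became 9 without day 1 array 2. Aspm (-0.89) and Nek2 (-0.55), a centrosome kinase, were still lower, whereas Kif23 (0.86) and Bub1b (0.75) were higher. At day 3 all 35 fell (median -1.29; 42.1% lower, median of all genes -0.19). After 30 Gy of gamma rays 5 fell and 1 rose at 6 h (median -0.14; 8.48% lower, 11.1% higher), and this count of 6 was 3 without untreated array 2 or without 6 h array 1. The one that rose was Ube2c (0.61), at 5.63 and 5.91 untreated and 6.38 and 6.37 at 6 h. At day 1, 2 fell and 6 rose (median 0.09; 12.6% lower, 8.02% higher), a count of 8 that was 4 or 5 without any 1 of the 4 arrays compared and became 1 lower and 10 higher with quantile normalization. At day 3, 25 fell (median -0.43; 24.4% lower). After 50 Gy 31 fell at 6 h (median -0.83; 14.6% lower), and 6 fell and 7 rose at day 1 (median 0.08; 13.2% lower, 10.5% higher), which was 7 in all without day 1 array 3 and 6 and 11 with median centring. At day 3, 23 fell (median -0.42; 21.7% lower).

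NFSa showed the largest median at day 3 after carbon ions among the 4 tumours. There 31 fell at 6 h (median -0.77; 12.2% of all genes lower), 2 fell and 2 rose at day 1 (median -0.04; 6.99% lower, 9.1% higher), and 35 fell at day 3 (median -1.77; 28.1% lower). The count of 4 at day 1 was 2 without untreated array 2. Kif23 fell by 2.11 at 6 h and 2.51 at day 3. Its levels were 1.04 and 1.55 untreated, -0.73 and -0.90 at 6 h, 0.64 and 0.79 at day 1, and -1.20 and -1.23 at day 3, so the day 1 arrays stayed below both untreated arrays. After 30 Gy of gamma rays 32 fell at 6 h (median -0.65; 5.53% lower), 1 fell and 17 rose at day 1 (median 0.32; 8.97% lower, 18% higher), and 34 fell at day 3 (median -1.14; 15.9% lower). After 50 Gy these counts were 31 (median -0.66; 10.9% lower), 1 and 13 (median 0.14; 9.13% lower, 15.9% higher) and 34 (median -1.32; 15.8% lower). The day 1 sum of 18 became 11 without day 1 array 4 of 30 Gy, and that of 14 became 8 or 9 without untreated array 2 or either day 1 array of 50 Gy.

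In #8520, carbon ions lowered 34 genes at 6 h (median -1.20; 18.2% of all genes lower), 13 at day 1 with 4 higher (median -0.22; 18.5% lower, 30.4% higher, and 22 and 2 with quantile normalization), and 34 at day 3 (median -1.68; 31.1% lower). Kif23 fell in this tumour by 1.99 at 6 h, 1.96 at day 1 and 2.79 at day 3. Its levels were 2.10 and 1.90 untreated, 0.10 and -0.08 at 6 h, -0.12 and 0.19 at day 1, and -0.60 and -0.99 at day 3. It is a gene that did not return at day 1 here, as was Bub1b (-1.11), while Ube2c (0.89) and Ccnb2 (0.66) rose. After 30 Gy of gamma rays 31 fell at 6 h (median -0.95; 24.1% lower), 33 at day 1 (median -1.14; 27.2% lower) and 34 at day 3 (median -1.69; 30% lower). From 6 h to day 1, 10 fell and 5 rose (median -0.19; 13.3% of all genes lower, 10.6% higher). Over the same interval 34 rose in SCCVII (median 1.06; 8.73% higher), 32 in NFSa (median 0.89; 14% higher) and 13 in NR-S1 (median 0.22; 5.53% higher). After 50 Gy 35 fell at 6 h (median -1.94; 37.5% lower, median of all genes -0.13). On the arrays that stood apart 34 fell at day 1 (median -1.13; 44.1% lower) and 34 at day 3 (median -1.60; 39.9% lower).

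At day 1 in #8520, 13 of 35 genes were lower after 50 Gy than after 30 Gy and 7 were higher. The median difference was -0.02, against -0.11 for all genes. The standard deviation over genes was 0.79, against 0.68 for all genes, so these counts are not read as particular to the 35 genes. Aspm, Cenpf and Incenp lay lower after 50 Gy, while Plk1 lay higher. Plk1 levels were 1.58 and 1.48 untreated. After 30 Gy they were -0.34 and -0.15 at 6 h, -0.30 and -0.12 at day 1, and -0.39 and -0.59 at day 3, so no array had returned. After 50 Gy they were -1.05 and -1.16 at 6 h, 0.50 and 0.56 at day 1, and 0.12 and 0.15 at day 3, the last 4 on arrays that stood apart. Kif23 and Bub1b did the same. Bub1b was at 1.01 and 0.78 untreated, at -1.37 and -1.15 at day 1 after 30 Gy, and at 0.38 and 0.37 at day 1 after 50 Gy.

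The size of the change differed between tumours for many of the genes. An F test over the 4 tumours passed for 28, 22 and 34 of 35 at 6 h, day 1 and day 3 after carbon ions, where it passed for 45%, 58.3% and 61.9% of all genes. For 30 Gy of gamma rays it passed for 29, 34 and 34, against 36.9%, 52.5% and 56%, and for 50 Gy for 35, 34 and 34, against 59.6%, 76.5% and 77%. The count at day 1 after carbon ions is near the share of all genes. Between NR-S1 and NFSa alone, the counts at day 1 and day 3 after 50 Gy were 5 and 29, against 21.6% and 26.9% of all genes. The number of genes whose 2 irradiated arrays lay below all untreated arrays of their tumour and arm in all 4 tumours was 31, 0 and 30 after carbon ions, where this held for 4.19%, 1.9% and 13.5% of all genes. After 30 Gy of gamma rays it was 20, 0 and 19 (2.87%, 3.23% and 6.53%), and after 50 Gy 31, 1 and 27 (4.69%, 4.97% and 12.1%). In NR-S1 and NFSa alone it was 3 at day 1 and 28 at day 3 after 50 Gy (9.07% and 19.4%).

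Carbon ions were compared with gamma rays at the same 30 Gy by the difference between their changes. At 6 h the change was lower after carbon ions for 25 of 35, with a median difference of -0.29, where 6.62% of all genes were lower and 9.28% higher. Aspm (-0.63 ± 0.10, adjusted p = 5.2e-06), Espl1 (-0.58 ± 0.09, adjusted p = 1.2e-06) and Kif20a (-0.51 ± 0.08, adjusted p = 1.5e-06) differed most. Of the checkpoint genes, Ttk was lower by the median amount (-0.29 ± 0.07, adjusted p = 0.00108). Bub1b (-0.02), Bub1 (0.08), Mad2l1 (-0.06), Kif23 (-0.15) and Ccnb2 (-0.15) were among the 10 that did not pass. The difference between beams itself differed between tumours for 29, 32 and 24 of the 35 genes at 6 h, day 1 and day 3 by the F test, against 29.3%, 48.5% and 40.3% of all genes. In NR-S1 29 were lower (median -0.90; 7.63% of all genes lower), in NFSa 8 were lower and 1 higher (median -0.19; 4.61% and 8.03%), and in #8520 7 were lower and 1 higher (median -0.18; 8.65% and 10.1%). In SCCVII only Bub1b differed, at 0.80 (median 0.03; 4.17% of all genes higher). The mean of the 35 levels in NR-S1 was 3.63 and 3.57 untreated and 2.58 and 2.60 at 6 h in the carbon arm. In the gamma arm it was 3.51 and 3.53 untreated, 3.38 and 3.41 at 6 h after 30 Gy, and 2.69 and 2.70 at 6 h after 50 Gy.

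At day 1 the beams differed for 5 of 35, 1 lower and 4 higher after carbon ions (median 0.05; 8.03% of all genes lower, 17.1% higher), and this count was 1 when only the arrays compared were fitted. With quantile normalization 4 were lower and 3 higher, and with median centring 3 lower and 1 higher. It was 10 without day 1 carbon array 1 of NR-S1, 8 without day 1 gamma array 4 of #8520, and 3 without day 1 carbon array 1 of SCCVII or untreated gamma-arm array 1 of #8520. The tumours went opposite ways. In #8520 31 were higher after carbon ions (median 0.99; 27.3% higher, median of all genes 0.18), with Aurka at 1.42, Cdc25c at 1.36 and Cdc20 at 1.35. In SCCVII 6 were lower (median -0.32; 7.68% lower), in NFSa 10 (median -0.35; 10.6%), and in NR-S1 3 were lower and 3 higher (median -0.17; 6.68% and 12.3%). The mean of the 35 levels in #8520 at day 1 was 3.69 and 3.80 after carbon ions and 2.64 and 2.70 after 30 Gy of gamma rays.

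At day 3, 32 of 35 were lower after carbon ions (median -0.46; 20.2% of all genes lower), with Aspm (-0.69 ± 0.10, adjusted p = 2.2e-07), Cenpe (-0.63) and Sapcd2 (-0.63) differing most. Bub1b (-0.23), Bub1 (-0.15) and Kif2c (-0.15), a kinesin that depolymerizes microtubules, did not pass. In NR-S1 32 were lower (median -0.82; 21.2% lower, median of all genes -0.12), in NFSa 26 (median -0.68; 12.5%) and in SCCVII 3 (median -0.23; 8.36%). In #8520 none passed limma's adjusted test (median -0.14, range -0.56 to 0.43), and 5 were lower at an unadjusted p under 0.05. The NR-S1 means of the 35 levels at day 3 were 2.33 and 2.24 after carbon ions and 3.13 and 3.03 after gamma rays. In NFSa they were 2.24 and 2.21 against 2.15 and 2.10, while its untreated means were 3.97 and 3.98 in the carbon arm and 3.29 and 3.17 in the gamma arm. In NFSa, therefore, the irradiated levels of the arms were close and the untreated levels were apart.

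**Figure D5:**
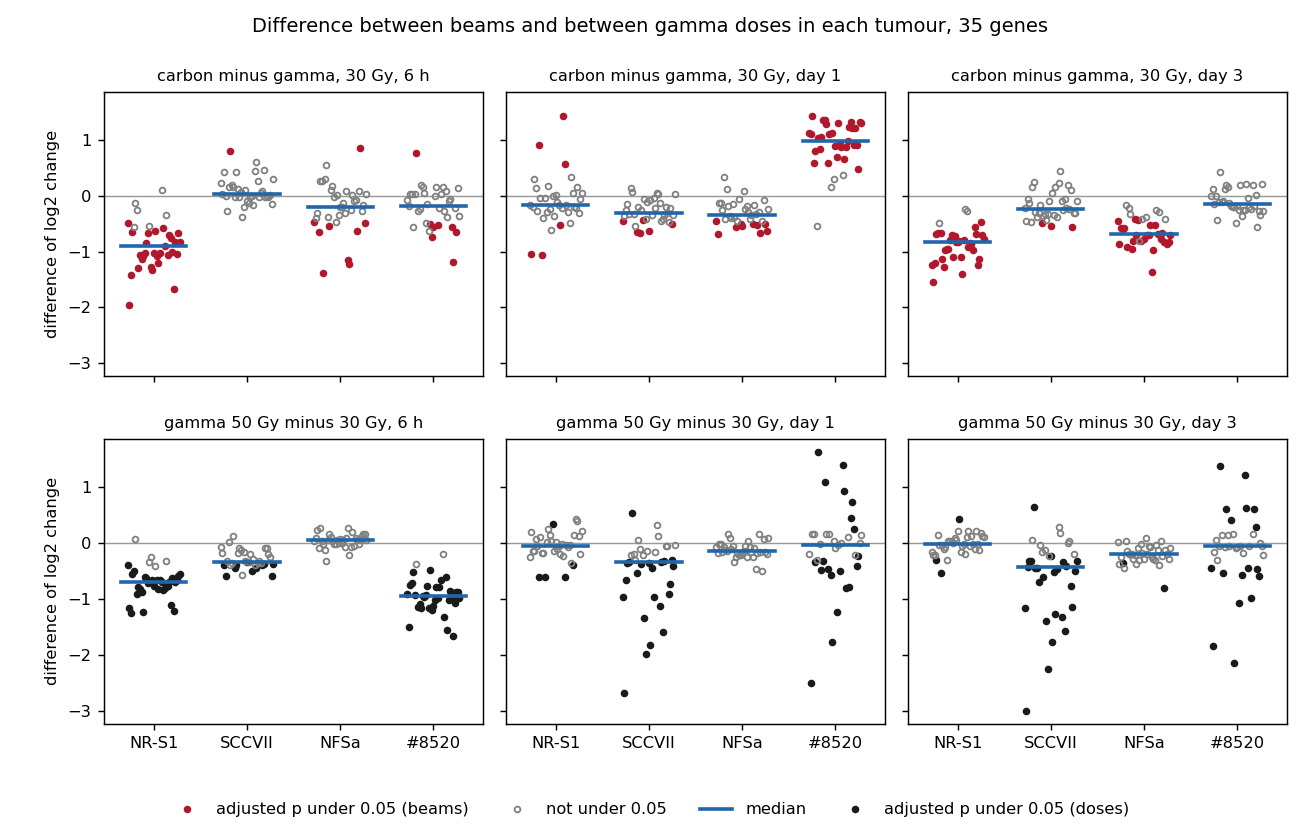
Difference between carbon ions and gamma rays at 30 Gy, and between 50 Gy and 30 Gy of gamma rays, in the log2 change of each of the 35 tested genes, by time and tumour, with each point a gene, filled where the adjusted p was under 0.05, and bars at the medians. At 6 h NR-S1 lies mostly below 0 in both panels, with medians of -0.90 between beams and -0.70 between doses, and at day 1 #8520 lies mostly above 0 between beams, with a median of 0.99.

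The arms shared no untreated arrays, and these differed. In the mean over tumours, 22 of the 35 genes were higher and 5 lower in the untreated tumours of the carbon arm (median 0.21; 33.7% of all genes higher, 26.6% lower). Kif23 (0.64 ± 0.08, adjusted p = 6.4e-10), Espl1 (0.64, adjusted p = 1e-12) and Cenpe (0.63), a kinetochore motor, were higher, and Cenpf (-0.33), Bub1 (-0.30) and Nek2 (-0.27) lower. Every comparison of the beams carries this difference between arms, and its part in the results was not tested.

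The gamma doses share their untreated arrays, so 50 Gy was set directly against 30 Gy. At 6 h 34 of 35 were lower after 50 Gy (median -0.46; 16.2% of all genes lower), with Sapcd2 (-0.73 ± 0.08, adjusted p = 3.2e-10), Aspm (-0.69) and Nek2 (-0.68) differing most and Bub1 (-0.20, adjusted p = 0.076) not passing. The difference between doses differed between tumours for 35, 26 and 29 genes at the 3 times, against 37.2%, 72.4% and 75.8% of all genes. The counts at day 1 and day 3 are near the shares of all genes. Between NR-S1 and NFSa alone it differed for 3 at day 1 and 3 at day 3, against 3.5% and 5.39%. In #8520 33 were lower at 6 h (median -0.94; 22.7%), in NR-S1 30 (median -0.70; 6.03%) and in SCCVII 11 (median -0.33; 2.68%). In NFSa none passed limma's adjusted test, nor an unadjusted p under 0.05 (median 0.05, range -0.32 to 0.27). At day 1 19 were lower and 2 higher (median -0.14; 43.1% of all genes lower, 19.6% higher), and at day 3 20 were lower and 4 higher (median -0.18; 35.5% and 23.9%). The counts at these times were far smaller without the arrays that stood apart, and their split moved with the scaling. Quantile normalization gave 9 lower and 12 higher at day 1 and 13 and 7 at day 3, and median centring 8 and 10, then 16 and 6. With NR-S1 and NFSa alone, 2 were lower at day 1 (median -0.06; 1.66% of all genes) and 3 at day 3 (median -0.08; 1.48%). In #8520, 13 were lower and 7 higher at day 1 (median -0.02, all genes -0.11), and 10 and 7 at day 3 (median -0.05, all genes -0.02). The standard deviation over genes was 0.79 and 0.69 at these times, against 0.68 and 0.57 for all genes. These counts are not read as particular to the 35 genes. Bub1b and Kif23 were higher in #8520 after 50 Gy than after 30 Gy, by 1.64 and 1.41 at day 1 and by 1.38 and 1.22 at day 3.

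Bub1, read by a dim probe, had the smallest drop of the 35 genes at 6 h and at day 3 after each beam and dose, and lay within their range at day 1. Its NFSa levels in the carbon arm were -0.48 and -0.70 untreated, -0.52 and -0.84 at 6 h, -0.82 and -0.58 at day 1, and -0.97 and -1.11 at day 3. In NR-S1 they were -0.06 and -0.69, -0.15 and -0.53, -0.33 and -0.96, then -1.23 and -1.16. Untreated and 6 h arrays overlapped in both tumours and the day 3 arrays lay below them. A second, dimmer probe of Bub1 changed by -0.34 at 6 h. Second probes disagreed in size for other genes at that time too. Aurka was at -0.12 against -1.10, Anln, the furrow scaffold anillin, at -0.37 against -0.90, Top2a at -0.38 against -0.68, and Kif11, the kinesin that pushes the spindle poles apart, at -0.79 against -0.91. After 50 Gy of gamma rays some differed in sign, in means that include the arrays that stood apart. At day 3 the second probe of Top2a was at 0.83 against -1.29 and that of Bub1 at 0.52 against -0.29. Those of Aurka, Anln and Kif11 were negative there, at -0.17, -0.16 and -1.21. At day 1 those of Bub1 (1.10), Top2a (0.97), Anln (0.45) and Aurka (0.14) were positive and that of Kif11 (-0.52) negative. The mean levels of these second probes were -3.16 for Bub1, -2.76 for Top2a, -0.31 for Anln, 0.42 for Aurka and 1.85 for Kif11. The arrays that stood apart had higher lowest intensities than the others, and the part of this in the signs was not tested.

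Ube2c had the largest rise of the 35 genes at day 1 after each beam and dose. At 6 h after carbon ions its change ran from -0.76 in #8520 to 0.23 in SCCVII. After carbon ions its levels in SCCVII were 5.91 and 5.73 untreated, 6.50 and 6.62 at day 1, and 5.72 and 5.74 at day 3. NFSa had 6.03 and 5.99 untreated, 5.34 and 5.44 at 6 h, 6.41 and 6.46 at day 1, and 4.40 and 4.42 at day 3. Every day 1 array lay above both untreated arrays of its tumour, in #8520 (5.82 and 5.84, then 6.60 and 6.83) and NR-S1 (5.79 and 5.83, then 6.28 and 6.58) as well. Ect2, not tested, had mean changes over the tumours of -1.05, -0.21 and -1.59 at 6 h, day 1 and day 3 after carbon ions. Its day 1 change was 0.93 in NR-S1, -0.12 in SCCVII, -0.20 in NFSa and -1.45 in #8520. Kif23 had the same signs in NR-S1 and #8520 (0.86 and -1.96), as had Bub1b, a gene of another role. The likeness of these genes was not tested.

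Other mitosis genes, from a list of 67 of which 55 were tested, moved likewise: after carbon ions 52 fell and 1 rose at 6 h (median -0.59), 21 fell and 7 rose at day 1 (median -0.08), and 55 fell at day 3 (median -1.21). Among all genes, 19.5% were lower and 21% higher at 6 h, 16.6% and 25.5% at day 1, and 41.8% lower at day 3. Troap, a spindle-associated protein, fell by 1.11 ± 0.04 at 6 h (adjusted p = 3.5e-28). The gene that rose was Gtse1, a microtubule-binding regulator of p53, by 0.68 ± 0.06 at 6 h (adjusted p = 1.6e-13) and 0.89 ± 0.06 at day 1 (adjusted p = 8.7e-18). It also rose at 6 h after 30 Gy (0.52) and 50 Gy (0.42) of gamma rays. Mki67, the proliferation marker, had values on 64 arrays and was not tested. Its carbon-arm changes at 6 h, day 1 and day 3 were -1.26, -0.32 and -1.62 in NR-S1 and -0.79, -0.56 and -1.18 in SCCVII.

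The DNA replication genes, of which 34 of 40 listed were tested, stayed low at day 1. After carbon ions 32 fell at 6 h (median -0.42), 29 at day 1 (median -0.34) and 34 at day 3 (median -1.11). The shares of all genes lower at these times were 19.5%, 16.6% and 41.8%. The mitosis and spindle genes had 9 of 35 lower at day 1. Mcm2, a subunit of the replicative helicase, fell by 0.95 at 6 h, and Tk1, thymidine kinase, by 0.78 at day 1. After gamma rays 26 and 33 were lower at day 1 after 30 and 50 Gy (medians -0.31 and -0.58), where 21.7% and 45.1% of all genes were lower. The difference between both lists was not tested.

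Among the regulators, Foxm1, an activator of late cell cycle genes, fell by 0.39 ± 0.05 at 6 h after carbon ions (adjusted p = 1.8e-08) and by 0.63 at day 3, and did not pass at day 1 (-0.12, adjusted p = 0.0728). Mybl2, which encodes B-Myb, fell at all 3 times, by 0.54, 0.62 and 1.70, as did E2f7, a repressor of E2F targets, by 0.49, 0.70 and 1.98. Wee1, the kinase that restrains Cdk1, fell by 0.88 at 6 h and 0.97 at day 3, and was at -0.11 at day 1 (adjusted p = 0.176). Cdkn1a rose by 1.27 ± 0.10 at 6 h (adjusted p = 2.5e-16) and stayed at 1.13 and 1.14 at day 1 and day 3. These are means over the tumours, and the relation of Cdkn1a to the mitosis and spindle genes was not tested. After 30 Gy of gamma rays Cdkn1a was at 1.11, 0.95 and 1.14, and after 50 Gy at 1.46, 1.05 and 1.23.

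Markers of other cells moved at the same times. Of 8 tested T and NK cell markers all 8 rose at day 3 after carbon ions (median 2.25), where 26.4% of all genes were higher, and their summed linear intensity went from 13.7 to 36.7 untreated to 74.8 to 124.7. Of the values of the 11 of these markers with a probe, at most 2 in a carbon group and 4 to 8 in a gamma group were missing or not above 0. After gamma rays 8 fell at 6 h and 8 at day 1 after 30 Gy, where 18.4% and 21.7% of all genes were lower. At day 3 after this dose 3 fell and 5 rose, where 30.9% of all genes were lower and 23.1% higher. Of 10 tested macrophage markers, 9 rose at day 3 after carbon ions (median 1.14), with a summed intensity of 158.6 to 803.1 untreated and 698.5 to 1268 at day 3. Neutrophil markers rose at 6 h after carbon ions, 7 of 8 (median 1.64), where 21% of all genes were higher, with a sum of 13.9 to 127.0 untreated and 50.5 to 350.4 at 6 h. Skeletal muscle markers rose by less, 8 of 10 at 6 h (median 0.32) and 9 at day 1 (median 0.65), where 25.5% were higher, with a sum of 355.4 to 606.8 untreated and 565.2 to 840.8 at day 1. The part of these cells in the falls at 6 h and day 3 was not tested.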

How the data were processed

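The deposited values are intensities of 1-colour CodeLink arrays hybridised with Cy5, per the labels. Each array had already been scaled to a median near 1. The scanner, background correction and scaling rule: not given in the sources used here. Their log2 was taken, and values at or below 0 (0.149% of all) were set as missing. Of 36227 probes, 21615 carried 1 gene symbol, 681 several and 13931 none, in the platform annotation, with 21487 matched by Entrez number. Genes in the dimmest 25% or with values on under 80% of arrays were left out. A single limma fit (version 3.58.1, R 4.3.3) over 44 groups gave all comparisons, two-sided, with Benjamini-Hochberg adjustment at 0.05 over 13465 genes. It had 44 residual degrees of freedom, and 5 members lacked a value on 1 array. No further normalization was applied.

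The members and lists were chosen with earlier results of these data known. Named genes were the 3 that fell or rose most among those that passed in a mean comparison, the 2 in a tumour, and up to 5 that went the other way or did not pass. Values of every array were given for Plk1, Cdk1, Ccnb2, Top2a and up to 6 further members. Cenpf, Incenp, Bub1, Bub1b and Ube2c at other points, and the Ect2 and Mki67 values, were chosen after their values were seen. Promoter windows came from a RefSeq table of GRCm38.p6 and were searched on both strands. The statistics were tested on simulated data. Figures used Python 3.11.15 and matplotlib 3.10.9. Alternatives were quantile normalization, median centring, other filters, the mean of all probes, a fit on only the arrays compared, untreated tumours of both arms, a replicate block, leaving out each array, and leaving out the 2 tumours with arrays that stood apart. The array titles do not say whether same-numbered arrays of different groups share more than a number. With the gamma day 1 groups left out, the correlation of their deviations ran from -0.20 to 0.39. Its median per tumour and arm ran from -0.06 to 0.16. No pairing entered the main fit.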

Additional observations from a re-analysis of the deposited data

Results flagged for a closer look

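Each result here is a test of a difference between groups. The change of a gene differed between the 4 tumours by limma's F test, adjusted over all genes, for 28, 22 and 34 of the 35 mitosis and spindle genes at 6 h, day 1 and day 3 after carbon ions. Of all genes, 45%, 58.3% and 61.9% passed this test. For 30 Gy of gamma rays the counts were 29, 34 and 34, against 36.9%, 52.5% and 56% of all genes. For 50 Gy they were 35, 34 and 34, against 59.6%, 76.5% and 77%. The count at day 1 after carbon ions is near the share of all genes. The change differed between carbon ions and 30 Gy of gamma rays for 25, 5 and 32 genes at the 3 times, and between 50 Gy and 30 Gy of gamma rays for 34, 21 and 24. Between beams, 6.62% of all genes were lower and 9.28% higher at 6 h, 8.03% and 17.1% at day 1, and 20.2% lower at day 3. Between doses, 16.2% were lower at 6 h, 43.1% lower and 19.6% higher at day 1, and 35.5% and 23.9% at day 3. The counts between beams at day 1, and between doses at day 1 and day 3, are near or below these shares. With NR-S1 and NFSa alone the counts between doses at day 1 and day 3 were 2 and 3, all lower, against 1.66% and 1.48% of all genes. The change differed between these 2 tumours for 5 and 29 genes at day 1 and day 3 after 50 Gy, against 21.6% and 26.9%.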

How the results depend on the processing

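Few counts of mitosis and spindle genes moved by more than 1.5 times. For genes lower and higher, the count is their sum, so a shift from lower to higher within it did not register. With quantile normalization and median centring, such shifts occurred between gamma doses at day 1 and day 3. They also occurred in SCCVII at day 3 after 50 Gy of gamma rays. The 5 genes that differed between beams at day 1 were 3 after dropping the dimmest 50% of genes, 1 with only the arrays compared, and 3 to 10 when any single array was left out. With NR-S1 and NFSa only, the 29 that changed at day 1 after 50 Gy of gamma rays were 16, the 21 and 24 that differed between gamma doses at day 1 and day 3 were 2 and 3, and the 34 whose change differed between tumours at day 1 after 50 Gy were 5. The cause was not tested. The sign of some changes at day 1 after 50 Gy turned: Plk1 to 0.044 with quantile normalization and 0.011 with median centring, Hmmr to -0.071 with the untreated tumours of both arms, and Aspm to 0.37, Cenpf to 0.20 and Top2a to 0.072 with NR-S1 and NFSa only. From 6 h to day 1 after 50 Gy, Cenpf became 0.53 and Incenp 0.35 in these 2 tumours. Top2a at 6 h after 30 Gy of gamma rays became 0.28 with the mean of all its probes (adjusted p = 0.714 by limma). Each of its 2 probes alone was lower there, at -0.35 and -0.07. The mean on an array used only the probes with a value, so the probes averaged could differ between arrays. A replicate block moved no count and lost only the rise of Cdk1 at day 1 after carbon ions (0.16, adjusted p = 0.0594 by limma). Gamma-arm day 1 arrays carry other numbers than the untreated ones, so no block could be fitted there. Leaving out single arrays left 892 to 924 calls over the tumours in all. The probes of Bub1 and Kif23 were both dim, with mean levels of -0.51 and -0.55, and Kif23 was among the genes that fell most at day 3 after carbon ions. The part of probe dimness in the size of a change was not tested.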
